A study of Mus musculus with 10 samples.

Results

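Genes for acetaldehyde and alcohol dehydrogenases were examined in mouse liver, 10 of the 47729 genes of the deposited table. These genes were chosen by gene symbol and by no cutoff on a measured value, with earlier results of these data known. They comprise 7 aldehyde dehydrogenases, Aldh2, Aldh1a1, Aldh1a7, Aldh1b1, Aldh3a2, Aldh7a1 and Aldh9a1, and 3 alcohol dehydrogenases, Adh1, Adh4 and Adh5. They were chosen because acetaldehyde is a product of the reaction catalysed by Etnppl, the enzyme whose gene is targeted in the knockout mice. Livers came from female mice with a full-body knockout of Etnppl (KO) and from wild-type females (WT), with 5 samples per genotype. Both genotypes had eaten chow for 8 weeks and a high-fat diet, with 45% of energy as fat, for the next 10 weeks, so that no liver on chow alone is part of the comparison. Poly(A)-selected RNA of whole liver was sequenced, and each gene's level is given in FPKM, the number of fragments scaled to transcript length and to the fragments of the library. The labels do not say how the knockout allele was made, which strain it is on or that each sample is a separate animal, so p-values measure only the spread between these samples.

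Etnppl encodes ethanolamine-phosphate phospho-lyase, which splits phosphoethanolamine into acetaldehyde, ammonia and phosphate. Alcohol dehydrogenases convert alcohols and aldehydes into one another with NAD, and aldehyde dehydrogenases oxidise aldehydes irreversibly to acids. In liver, acetaldehyde from any source is oxidised to acetate mainly by the mitochondrial enzyme Aldh2, and the same enzyme families also act on retinal, fatty aldehydes, formaldehyde and aldehydes from amino acid breakdown.

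The promoters of 5 members are shown first, those of Aldh1a1 and Aldh1a7 because the pair shares sequence and the others as members of low p, wide spread or narrow spread between livers. Of the 10 members, 8 were matched to RefSeq promoter windows (GRCm38.p6), which run from 250 bases before to 50 bases after a transcription start. Aldh1a1 and Aldh1a7 are neighbours on chromosome 19, on opposite strands. The windows of the second Aldh1a1 start (chr19:20601718-20602017, plus strand) and of Aldh1a7 (chr19:20727507-20727806, minus strand) were 79.4% identical over 282 aligned bases. Capitals mark the identical runs of at least 20 bases, the longest of which has 65 bases.
Aldh1a1: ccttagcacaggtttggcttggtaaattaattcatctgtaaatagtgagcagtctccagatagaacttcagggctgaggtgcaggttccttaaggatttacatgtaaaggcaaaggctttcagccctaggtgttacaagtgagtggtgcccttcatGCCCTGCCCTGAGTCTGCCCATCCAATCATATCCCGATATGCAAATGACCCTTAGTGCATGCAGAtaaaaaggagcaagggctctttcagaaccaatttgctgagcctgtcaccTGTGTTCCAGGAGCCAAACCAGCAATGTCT
Aldh1a7: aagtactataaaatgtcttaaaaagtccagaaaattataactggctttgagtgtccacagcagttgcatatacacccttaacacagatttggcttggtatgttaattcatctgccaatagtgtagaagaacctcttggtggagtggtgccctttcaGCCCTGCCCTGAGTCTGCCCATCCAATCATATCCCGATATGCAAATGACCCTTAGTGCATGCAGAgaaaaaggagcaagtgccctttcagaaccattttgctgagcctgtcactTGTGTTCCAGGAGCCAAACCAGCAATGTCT
For 3 further members the windows are given with the motifs found in capitals. The motifs searched on both strands were CACGTG (an E-box, in 7.15% of all 32851 RefSeq promoter windows), CCAAT (37.4%), TATAAA (13.6%), GGGCGG (a GC box, 35.7%) and the nuclear receptor repeat AGGTCA, spacer N, AGGTCA (0.0396%). The matches in the 3 windows shown do not overlap one another. Aldh3a2 is shown as the member with the lowest p, at chr11:61267137-61267436 on the minus strand. It has GGGCGG starting 47 bases, CACGTG 30 bases and CCAAT 13 bases before the start. Adh1 is shown as a member that varied widely between livers, at chr3:138277335-138277634 on the plus strand, with CACGTG starting 4 bases after the start. Adh5 is shown as a member that varied little, at chr3:138442843-138443142 on the plus strand, with 3 GC boxes read on the other strand as CCGCCC. A match of letters is a description of the window and shows no binding.
Aldh3a2: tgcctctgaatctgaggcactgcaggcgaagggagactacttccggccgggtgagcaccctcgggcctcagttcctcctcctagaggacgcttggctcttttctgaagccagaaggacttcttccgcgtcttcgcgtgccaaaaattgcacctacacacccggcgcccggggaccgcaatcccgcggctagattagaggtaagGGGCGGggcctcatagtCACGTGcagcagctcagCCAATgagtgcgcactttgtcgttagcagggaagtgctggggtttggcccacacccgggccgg
Adh1: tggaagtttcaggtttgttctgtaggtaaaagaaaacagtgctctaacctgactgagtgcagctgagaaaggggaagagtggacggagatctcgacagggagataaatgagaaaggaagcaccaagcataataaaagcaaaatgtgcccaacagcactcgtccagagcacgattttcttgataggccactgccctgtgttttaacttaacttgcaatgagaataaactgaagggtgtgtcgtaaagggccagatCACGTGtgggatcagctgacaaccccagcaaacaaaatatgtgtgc
Adh5: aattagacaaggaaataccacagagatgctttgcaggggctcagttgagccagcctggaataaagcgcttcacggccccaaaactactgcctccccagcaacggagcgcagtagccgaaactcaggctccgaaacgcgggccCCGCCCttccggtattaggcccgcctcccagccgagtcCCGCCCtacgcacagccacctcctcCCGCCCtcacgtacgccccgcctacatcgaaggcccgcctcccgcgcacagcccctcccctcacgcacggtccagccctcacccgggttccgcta

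Depth, estimated from low FPKM values, was 21400000 to 28400000 fragments in each library. That puts about 680 fragments behind the lowest member value (Adh4) and about 150000 behind the highest (Aldh2). Counting error was then at most 3.84% for any member, and the spread between livers was the larger error. Etnppl stood at 27.57, 56.55, 32.99, 36.68 and 30.63 FPKM in WT replicates 1 to 5 and at 8.79, 7.75, 10.19, 7.36 and 9.35 FPKM in KO replicates 1 to 5, so every library matched its genotype label (log2 fold change -1.99, limma adjusted p 0.000387). Some Etnppl RNA remained in KO livers, at 23.6% of the WT mean, and RNA levels do not measure the enzyme itself. Hepatocyte markers summed to between 56779 and 68887 FPKM in WT livers and between 64550 and 75567 FPKM in KO livers. The largest part was Alb, at a mean of 40603 FPKM. All 7 markers had fold changes above 0, KO against WT, as 34.9% of all genes had. Tat stood at 206% of the WT mean (limma adjusted p 0.126), and 0 of the 7 had an adjusted p below 0.05. WT replicate 2 stood apart. It had the lowest mean correlation with the other libraries and the largest deviation from its genotype means over all genes (SD 0.258 on the log2 scale, against 0.210 to 0.242 in the others). It had the lowest sum of 17 genes of pericentral hepatocytes, the cells around the central vein, at 8735 FPKM against 10756 to 11402 FPKM in the other WT livers and 10147 to 10967 FPKM in KO livers, and Cyp2e1 alone was 5870.73 FPKM of that sum. It also had the highest erythroid (510.6 FPKM against 281 to 389 FPKM in the others), stellate cell (192.18 against 141 to 160 FPKM) and lymphocyte marker sums (9.26 against 3.24 to 6.24 FPKM). Differences that leaving it out moved by over 1.5 times are given without it as well. Pancreas markers summed to 107.61 FPKM in KO replicate 3 and to 2.17 to 3.19 FPKM elsewhere.

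Averaged over the 10 livers, Aldh2 was the most abundant member, at 1292 FPKM, followed by Adh1 at 954 FPKM, Aldh1a1 at 423 FPKM and Aldh3a2 at 352 FPKM. Aldh9a1 (180 FPKM), Adh5 (168 FPKM) and Aldh7a1 (164 FPKM) formed a middle group. Aldh1a7 (59.8 FPKM), Aldh1b1 (39.1 FPKM) and Adh4 (33.1 FPKM) were lowest. Aldh2 lay above Adh1 in 10 of 10 livers, and Aldh3a2 above Aldh9a1 in 10 of 10. Neighbours in the order that changed places between livers were Aldh1a1 and Aldh3a2 (in this order in 7 of 10), Adh5 and Aldh7a1 (6 of 10), Aldh1a7 and Aldh1b1 (9 of 10) and Aldh1b1 and Adh4 (7 of 10). Together the 10 genes made up 2896 FPKM in WT replicate 2 and 3117 FPKM in KO replicate 4, the lowest of their genotypes, and up to 4131 FPKM in KO replicate 2. That is 0.385% to 0.565% of the FPKM of a library. Aldh2 held 32.6% to 38.5% of the sum and Adh1 22.1% to 28.1%.

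**Figure D1:**
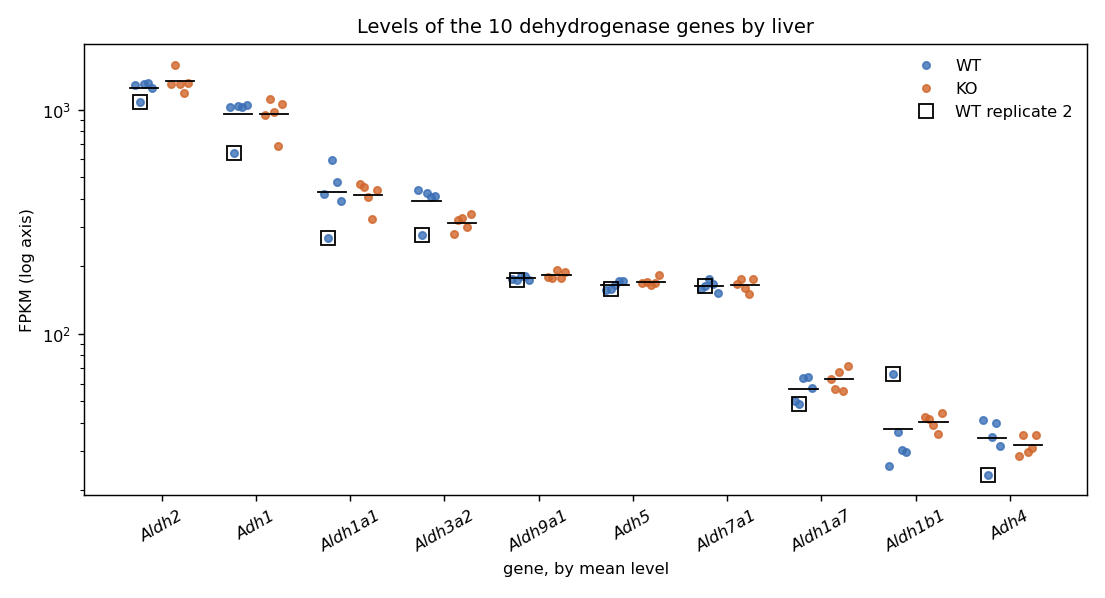
FPKM of the 10 genes in each liver on a log axis, genes ordered by mean level. Points are single livers (WT blue, KO orange), lines are means and the square marks WT replicate 2. WT and KO points overlap for every gene, and WT replicate 2 is the lowest point for 6 genes and the highest for Aldh1b1.

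None of the 10 members differed between the genotypes at an adjusted p below 0.05 (limma over 12395 genes averaging 0.5 FPKM or more, Benjamini-Hochberg adjustment), where 0.0645% of all genes tested did (0.0323% higher and 0.0323% lower in KO). At an unadjusted p below 0.05, 1 of 10 members was called, Aldh3a2, lower in KO. Of all genes tested, 11.8% had such a p, 2.69% higher and 9.07% lower in KO. The ranges of the 5 WT and 5 KO livers overlapped for 10 of 10 members, and did not for 2.79% of all genes. The fold change was above 0 in 7 of 10 members and in 34.9% of all genes, with a median log2 fold change of 0.03 over the members and -0.05 over all genes. That background split depended on the scaling. The unadjusted calls, 334 higher and 1124 lower, became 669 higher and 599 lower under median-of-ratios scaling.

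Aldh2, the mitochondrial enzyme that clears most acetaldehyde, lies on chromosome 5 (chr5:121566027-121593824, minus strand, GRCm38). Its level was 1285.80, 1077.53, 1307.09, 1310.83 and 1251.19 FPKM in WT replicates 1 to 5 and 1301.31, 1588.76, 1304.46, 1186.61 and 1307.77 FPKM in KO replicates 1 to 5. KO replicate 2 was the highest and WT replicate 2 the lowest, and the other 8 livers lay between 1186.61 and 1310.83 FPKM. The means were 1246 ± 97.4 FPKM in WT and 1338 ± 149 FPKM in KO (SD, n = 5 each). The log2 fold change of 0.10 (95% confidence interval -0.08 to 0.28) did not pass the test (adjusted p 0.690, limma). It was 0.05 without WT replicate 2 (adjusted p 0.868). As a fold, KO over WT, the interval runs from 0.944 to 1.22. A gene model on the opposite strand, Gm42879, overlaps 130 exon bases of Aldh2, and the strand setting of the authors' counting is unknown here.

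Aldh1b1, a second mitochondrial acetaldehyde dehydrogenase that also accepts retinal, was at 25.64, 65.87, 36.43, 30.36 and 29.74 FPKM in WT and at 42.54, 41.58, 38.98, 35.63 and 44.16 FPKM in KO. WT replicate 2 was the highest of all livers, 2.57-fold above the lowest, WT replicate 1. In KO the livers were close together (40.6 ± 3.34 FPKM, against 37.6 ± 16.3 FPKM in WT). The log2 fold change was 0.19 (-0.28 to 0.66, adjusted p 0.764, limma). Without WT replicate 2, the WT mean was 30.5 ± 4.45 FPKM (n = 4) and the log2 fold change 0.41 (0.20 to 0.63). Its unadjusted p was then 0.00128 and its adjusted p 0.124, so it stayed short of the threshold, and WT replicate 3 still overlapped the KO range. Without that library, 3.17% of genes were higher at an unadjusted p below 0.05.

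Aldh3a2 encodes the fatty aldehyde dehydrogenase of the endoplasmic reticulum, which oxidises long-chain aldehydes from sphingolipid, ether lipid and phytol breakdown. It lies at chr11:61223417-61267464 on the minus strand, and its promoter is printed above. WT replicates 1 to 5 had 437.37, 274.83, 423.92, 405.51 and 411.93 FPKM, and KO replicates 1 to 5 had 277.53, 320.30, 327.76, 299.38 and 340.81 FPKM. Of the WT livers, 4 lay above all 5 KO livers, and WT replicate 2 lay below all of them. The means were 391 ± 65.9 FPKM in WT and 313 ± 24.9 FPKM in KO (SD, n = 5 each), so the KO mean was 80.2% of the WT mean. The log2 fold change was -0.30 (SE 0.12, 95% confidence interval -0.56 to -0.05), with an unadjusted p of 0.0222 and an adjusted p of 0.318 (limma). It did not pass the threshold and ranked 868 of 12395 genes.

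Without WT replicate 2, Aldh3a2 was the only member past the threshold. The remaining WT livers had 420 ± 14.0 FPKM (n = 4), the log2 fold change was -0.42 (SE 0.07, -0.57 to -0.28), the adjusted p was 0.0406 and the gene ranked 15. Without that library, 8.46% of genes were lower at an unadjusted p below 0.05 and 0.146% passed the adjusted threshold. The ranges of WT and KO then did not overlap, as for 3.55% of genes in the same direction, while 0 members had separate ranges with KO higher, as 1.13% of genes had. Over 21 refits, which include leaving out each of the other 9 libraries, the log2 fold change of Aldh3a2 lay between -0.42 and -0.25 and the adjusted p between 0.0406 and 0.520, past the threshold in 1. Without WT replicate 1, WT replicate 3 or KO replicate 1, the unadjusted p of Aldh3a2 was not below 0.05. WT replicate 2 was left out after its values were seen. Its low sum of pericentral genes and its periportal sum of 12252 FPKM (9465 to 11297 FPKM in the other WT livers, 11538 to 13958 FPKM in KO), and the erythroid, stellate cell and lymphocyte sums given above, moved with these values, and their part in the result was not tested. In whole liver, fewer cells of a type and less RNA per cell cannot be told apart.

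**Figure D2:**
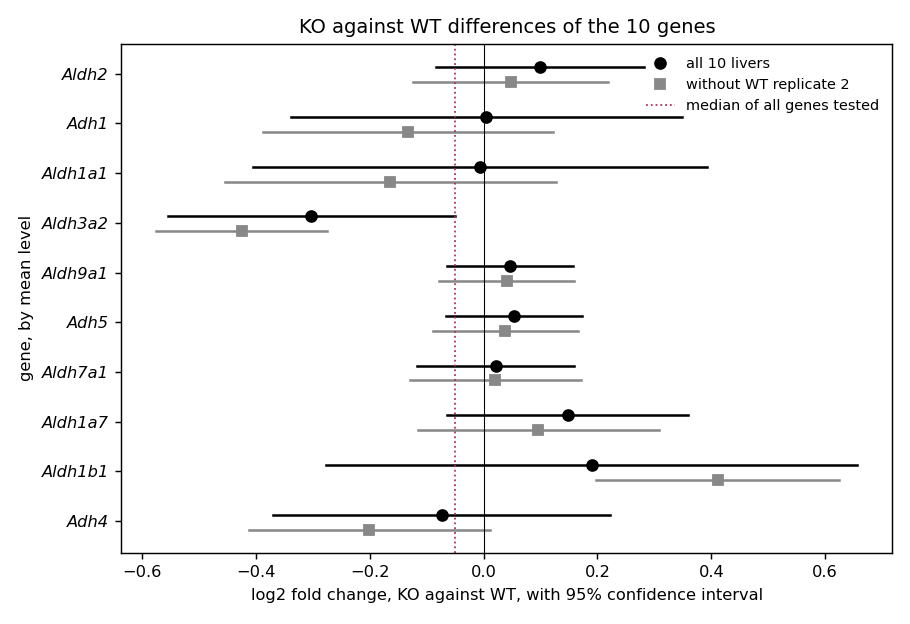
Log2 fold change of each gene, KO against WT, with its 95% confidence interval, from all 10 livers (black) and without WT replicate 2 (grey). The dotted line is the median of all genes tested, -0.05. The interval of Aldh3a2 lies below 0 in both, and that of Aldh1b1 lies above 0 without WT replicate 2.

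Aldh1a1, the cytosolic enzyme that oxidises retinal to retinoic acid and also accepts acetaldehyde, was at 419.46, 268.20, 593.66, 474.60 and 389.81 FPKM in WT and at 463.48, 451.04, 407.89, 323.74 and 437.69 FPKM in KO. WT replicate 2 was again the lowest liver and KO replicate 4 the lowest KO liver, while WT replicate 3 was the highest. The log2 fold change was -0.01 (-0.41 to 0.39, adjusted p 0.993, limma), and its sign depended on the scaling. It was -0.16 without WT replicate 2 (adjusted p 0.689). The livers differed by up to 2.21-fold.

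Aldh1a7, the close paralogue next to it, was at 50.02, 48.86, 63.29, 64.47 and 57.38 FPKM in WT and at 62.78, 56.66, 67.30, 55.64 and 71.93 FPKM in KO. The ranges overlapped, with WT replicate 2 lowest and KO replicate 5 highest. Its log2 fold change was 0.15 (-0.06 to 0.36, adjusted p 0.585, limma), and 0.10 without WT replicate 2 (adjusted p 0.759). The ratio of Aldh1a1 to Aldh1a7 FPKM ran from 5.49 in WT replicate 2 to 9.38 in WT replicate 3, so the pair did not keep a fixed proportion. Over the 10 livers their log2 levels had Pearson's r of 0.595 and Spearman's rho of 0.527, which did not pass (permutation adjusted p 0.231 and 0.339 over 45 pairs). The r was 0.352 without WT replicate 2 and 0.363 without WT replicates 2 and 3, the livers farthest from the Aldh1a1 median. Their transcripts were 90.4% identical over 2042 aligned bases and shared 7.5% of their 50-base words, so a part of their fragments cannot be assigned with certainty and the split between them rests on the authors' counting.

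Aldh7a1, which acts in lysine breakdown, and Aldh9a1, which acts in carnitine synthesis, varied little. Aldh7a1 was at 157.77, 162.83, 176.40, 167.58 and 151.62 FPKM in WT and at 166.13, 175.00, 160.21, 151.01 and 176.01 FPKM in KO. Aldh9a1 was at 176.09, 174.36, 181.03, 181.73 and 173.52 FPKM in WT and at 179.60, 177.28, 192.67, 177.59 and 188.98 FPKM in KO. In both genes the groups overlapped, and in neither did WT replicate 2 lie outside the other WT livers. The log2 fold changes were 0.02 (-0.12 to 0.16) for Aldh7a1 and 0.05 (-0.06 to 0.16) for Aldh9a1, with limma adjusted p of 0.929 and 0.760. Exons of Aldh7a1 share 300 bases with Phax on the opposite strand.

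The 3 alcohol dehydrogenases lie side by side on chromosome 3, Adh1 at chr3:138260991-138290698, Adh4 at chr3:138415466-138430892 and Adh5 at chr3:138443093-138455499, all on the plus strand. Etnppl lies on the same chromosome, 7.62, 7.78 and 7.81 Mb away from them. Adh1, the main ethanol-oxidising enzyme of mouse liver, was at 1023.51, 641.45, 1032.47, 1030.99 and 1043.44 FPKM in WT and at 942.65, 1114.86, 971.15, 688.51 and 1055.48 FPKM in KO. One liver in each genotype, WT replicate 2 and KO replicate 4, lay well below the rest, and the other 4 WT livers had 1033 ± 8.22 FPKM. The means were 954 ± 175 FPKM and 955 ± 164 FPKM (SD, n = 5 each), with a log2 fold change of 0.00 (-0.34 to 0.35, adjusted p 0.994, limma). Without WT replicate 2 the log2 fold change was -0.13 (adjusted p 0.719). An antisense gene, Gm16559, overlaps 136 exon bases of Adh1.

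Adh4, the class of liver alcohol dehydrogenase that acts at high alcohol levels and on retinol, was at 41.39, 23.45, 34.75, 39.86 and 31.59 FPKM in WT and at 28.44, 35.53, 29.61, 31.07 and 35.30 FPKM in KO. All 5 KO livers lay inside the WT range. Its log2 fold change was -0.07 (-0.37 to 0.22, adjusted p 0.869, limma), and -0.20 without WT replicate 2 (adjusted p 0.457). Adh5, the glutathione-dependent formaldehyde dehydrogenase found in nearly all cells, was at 156.82, 158.30, 165.30, 171.68 and 172.10 FPKM in WT and at 169.23, 169.88, 164.62, 167.92 and 183.18 FPKM in KO. Its groups overlapped between 164.62 and 172.10 FPKM, with a log2 fold change of 0.05 (-0.07 to 0.17, adjusted p 0.749, limma). Transcripts of Adh1, Adh4 and Adh5 were 72.3% to 74.4% identical to one another and shared 0 words of 50 bases.

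**Figure D3:**
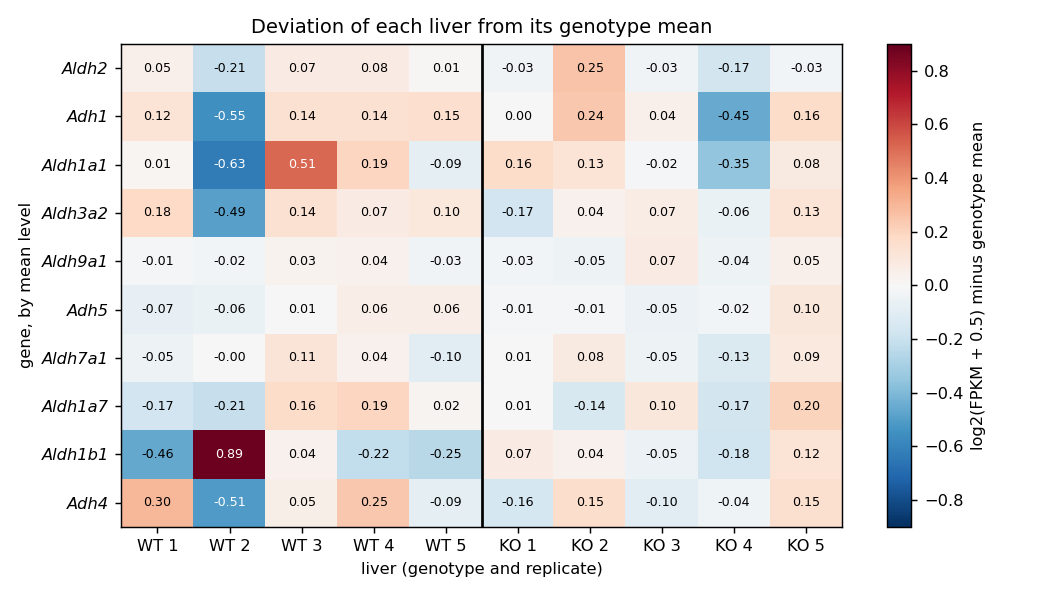
Deviation of each liver from its genotype mean, in log2(FPKM + 0.5), with genes in rows and livers in columns. Red is above and blue below the mean of the liver's own genotype. WT replicate 2 is low in Adh1, Aldh1a1, Aldh3a2 and Adh4 and high in Aldh1b1, KO replicate 4 is low in Adh1 and Aldh1a1, and Aldh9a1 and Adh5 hardly deviate in any liver.

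Some members varied widely between livers of 1 genotype and others hardly at all. WT replicate 2 was the lowest of all 10 livers in 6 members (Aldh2, Adh1, Aldh1a1, Aldh3a2, Aldh1a7 and Adh4), and KO replicate 4 was the lowest KO liver in 6. The SD between livers within a genotype, on the log2 scale, was 0.0449 for Aldh9a1, 0.0608 for Adh5 and 0.0876 for Aldh7a1. It was 0.137 for Aldh2, 0.171 for Aldh1a7, 0.212 for Aldh3a2 and 0.250 for Adh4, and it reached 0.289 for Adh1, 0.332 for Aldh1a1 and 0.381 for Aldh1b1. The comparison set was 2261 genes with a promoter window outside chromosome 18 that averaged 20 FPKM or more. Among them, the median was 0.123 and the 5th and 95th percentiles were 0.0637 and 0.339. Aldh9a1 and Adh5 therefore fell at percentiles 0.4 and 3.7, and Adh1, Aldh1a1 and Aldh1b1 at percentiles 92.6, 94.6 and 95.8. Much of this order rested on WT replicate 2. Without it, the SD was 0.162 for Aldh1b1, 0.0938 for Aldh3a2 and 0.160 for Adh4, at percentiles 75.1, 28.2 and 73.9 of the same genes, whose median was then 0.119. Aldh1a1 (0.235), Adh1 (0.204) and Aldh2 (0.118) then fell at percentiles 89.9, 86.2 and 49.6. Aldh9a1 (0.0469) and Adh5 (0.0604) stayed low, at percentiles 1.2 and 5.4. The description of spread, and its repeat without that library, were chosen after the values were seen.

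**Figure D4:**
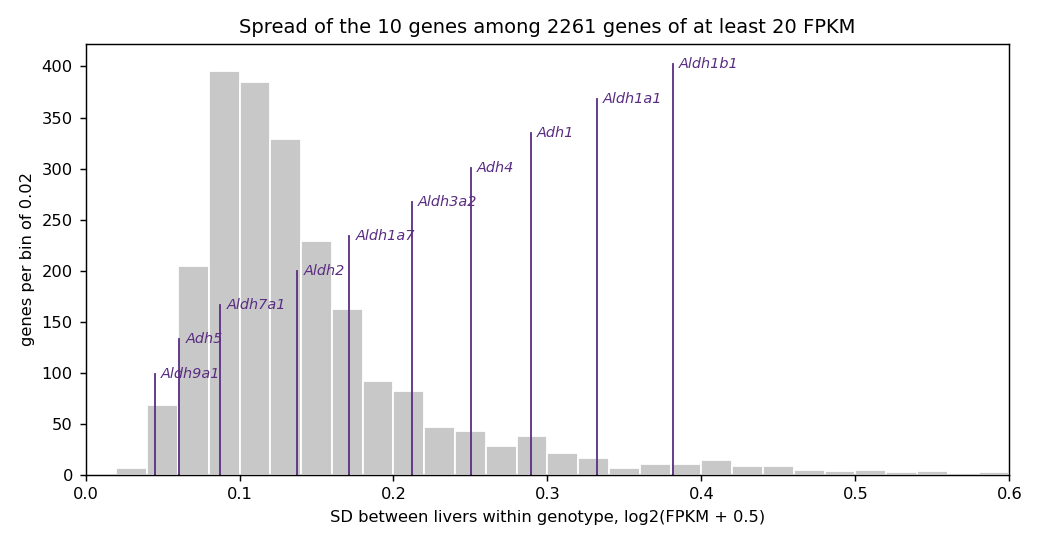
Histogram of the SD between livers within a genotype, in log2(FPKM + 0.5), in bins of 0.02. It covers the 2261 genes with a promoter window outside chromosome 18 that averaged 20 FPKM or more. Lines mark the 10 genes at heights chosen for reading only. Aldh9a1 and Adh5 lie at the left edge and Aldh1b1, Aldh1a1 and Adh1 in the right tail, where Aldh1b1 is placed by WT replicate 2 (SD 0.162 without it).

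The promoter windows also differed in base composition. CpG content, given as observed over expected CpG in the window of highest ratio for each gene, was 0.903 for Adh5 and 0.736 for Aldh3a2, and 0.402 for Adh1, 0.356 for Aldh9a1, 0.322 for Aldh1b1, 0.213 for Aldh1a1, 0.078 for Adh4 and 0.069 for Aldh1a7. Over the 2261 genes the median SD was 0.159 in the 410 genes of lowest CpG content, 0.132 in the next 253 and 0.116 in the 1598 of highest. These medians were 0.144, 0.127 and 0.114 without WT replicate 2. The other window of Adh5 had 0.182, and the printed second-start window of Aldh1a1 had 0.06. Aldh9a1 had the smallest spread of the members and a CpG ratio below that of Adh1, so the members did not follow the background order throughout.

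Of the 45 pairs of members, 1 correlated across the 10 livers at an adjusted p below 0.05. Aldh2 and Adh1 had Pearson's r of 0.798 (permutation p 0.00087, Benjamini-Hochberg adjusted p 0.0392 over 45 pairs) and Spearman's rho of 0.733 (permutation p 0.0206, adjusted p 0.132). The r was 0.835 without KO replicate 2 and WT replicate 2, the livers farthest from the Aldh2 median, and 0.856 with genotype means removed. It was 0.632 without WT replicate 2 alone. Aldh1a7 and Aldh9a1 had r of 0.828 and rho of 0.855 (adjusted p of r 0.0509). Aldh1b1 and Aldh3a2 ran opposite, with r of -0.793 and rho of -0.733 (adjusted p of r 0.0509), and r was -0.681 without WT replicates 1 and 2. No pair passed by Spearman's rho. The libraries share their scaling, and its part in these correlations was not tested.

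With genotype means removed, the genes whose log2 levels were most like those of Aldh2 over the 10 libraries were Prpf19 (r 0.965), Ttc33 (0.963) and Slc22a18 (0.959). For Adh1 they were Sord (0.952), the sorbitol dehydrogenase that belongs to the wider alcohol dehydrogenase superfamily, Acot4 (0.951) and Emc10 (0.949). They are a description, being the highest of all genes that averaged 1 FPKM or more.

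Other enzymes of the aldehyde dehydrogenase family were listed for comparison. Of 14, 9 were tested and 0 passed the adjusted threshold, 4 with a fold change above and 5 below 0 (median -0.06). At an unadjusted p below 0.05, 2 were higher and 1 lower in KO, against 2.69% and 9.07% of all genes. The 2 higher ones also had ranges that did not overlap, as for 0.581% of all genes in that direction. Aldh1l1, a cytosolic folate enzyme that oxidises formyltetrahydrofolate, was at 156.05, 193.75, 195.82, 170.47 and 164.83 FPKM in WT and at 287.74, 227.11, 236.61, 216.18 and 234.36 FPKM in KO. Every KO liver lay above every WT liver, and the KO mean was 136% of the WT mean (p 0.000260, limma adjusted p 0.101). Aldh16a1, a family member that lacks the catalytic cysteine, was at 21.76, 23.89, 25.48, 23.10 and 24.81 FPKM in WT and at 27.47, 28.41, 28.37, 28.97 and 28.37 FPKM in KO, again without overlap (119% of the WT mean, limma adjusted p 0.140). These values did not rest on WT replicate 2, since the log2 fold changes without it were 0.48 and 0.25 against 0.45 and 0.25 with it. Both Aldh6a1, of valine breakdown (log2 fold change -0.11, limma adjusted p 0.526), and Aldh3b1 (-0.17, 0.613) missed the threshold. Aldh3b1 had -0.10 without WT replicate 2 (limma adjusted p 0.793), where 5 of the 9 genes and 38% of all genes lay above 0.

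Of 10 further alcohol dehydrogenases and related reductases, 7 were tested and 6 had fold changes below 0 (median -0.14). None passed the adjusted threshold and 2 were lower at an unadjusted p below 0.05. Over all genes tested, 65.1% lay below 0 and 9.07% were lower at such a p. Dhrs4, a peroxisomal carbonyl and retinal reductase, had a log2 fold change of -0.24 (limma adjusted p 0.266), and Adhfe1, a mitochondrial iron-type hydroxyacid dehydrogenase, had a log2 fold change of -0.14 (limma adjusted p 0.390). Rdh16 had -0.16 and Sord -0.11 (limma adjusted p 0.595 and 0.718), and -0.24 and -0.18 without WT replicate 2 (0.331 and 0.484). The gene Adh6a was listed at 0 in every library, and Adh7, the alcohol dehydrogenase of stomach, averaged 0.791 FPKM.

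Among 9 other genes of ethanol and aldehyde oxidation, 7 were tested, 5 with fold changes above 0, and 2 were higher at an unadjusted p below 0.05. The shares over all genes tested were 34.9% above 0 and 2.69% higher at such a p. Aox3, a liver aldehyde oxidase, was at 43.52, 41.57, 50.35, 57.65 and 46.37 FPKM in WT and at 53.16, 59.26, 62.70, 56.31 and 62.10 FPKM in KO. Only WT replicate 4 reached into the KO range, and the KO mean was 123% of WT (limma adjusted p 0.208). Suox was the second of the 2 genes higher at an unadjusted p below 0.05. It is sulfite oxidase, named for sulfite and not for ethanol or an aldehyde, and had a log2 fold change of 0.12 (limma adjusted p 0.416). Cyp2e1, the microsomal ethanol-oxidising cytochrome, averaged 7372 ± 853 FPKM in WT and had a KO mean of 93.4% of that (log2 fold change -0.09, limma adjusted p 0.720). Without WT replicate 2, the log2 fold change of Cyp2e1 was -0.17 (limma adjusted p 0.278). Every KO liver then lay below the other WT livers, as for 3.55% of genes in that direction. Catalase (Cat) was at 99.9% of WT (0.998), Aox1 had a log2 fold change of 0.02 (0.962) and Esd, an esterase of formaldehyde clearance, -0.09 (0.586), all in the same limma fit. Cat and Aox1 had log2 fold changes of -0.06 each without WT replicate 2 (limma adjusted p 0.817 and 0.869). In that fit, 2 of the 7 genes lay above 0 instead of 5, against 38% of all genes.

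The product of acetaldehyde oxidation is acetate, which Acss2 joins to coenzyme A in the cytosol. Of 10 genes of acetate activation and use, 9 were tested and 7 had fold changes above 0 (median 0.06), against 34.9% of all genes. At an unadjusted p below 0.05, 2 were higher and 1 was lower (2 and 0 without WT replicate 2). The shares over all genes were 2.69% and 9.07%, and 3.17% and 8.46% without that library. Acss2 was at 14.09, 17.50, 17.60, 20.60 and 16.04 FPKM in WT and at 22.36, 21.90, 22.02, 20.57 and 23.12 FPKM in KO. The groups touched only at WT replicate 4 and KO replicate 4, and the KO mean was 128% of WT (limma adjusted p 0.143). Acat2, a cytosolic thiolase, stood at 124% (0.228) and Acat1, its mitochondrial counterpart, at 87.9% (0.349) of WT, with limma adjusted p in brackets. Hmgcs1, of cholesterol synthesis, had a log2 fold change of 0.28 (limma adjusted p 0.548).

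Aldo-keto and carbonyl reductases, which reduce aldehydes instead of oxidising them, numbered 18, all tested, with 8 fold changes above and 10 below 0 (median -0.05). At an unadjusted p below 0.05, 2 were higher and 1 was lower. The shares over all genes tested were 34.9% above 0, 2.69% higher and 9.07% lower at such a p. Akr1c12 was at 85.1% of WT and had KO livers all below the WT livers (limma adjusted p 0.143). Dcxr, a xylulose reductase, was at 123% with KO livers all above (0.197). Such separate ranges occurred in 2.21% of all genes with KO lower and in 0.581% with KO higher. Akr1a1, the general aldehyde reductase, was at 93.7% (0.666). Akr1c13 and Akr1c19 had log2 fold changes of -0.17 and -0.30 (limma adjusted p 0.459 and 0.477). Transcripts of Akr1c12 and Akr1c13 were 94.6% identical and shared 28.6% of the 50-base words of Akr1c12, so the split of reads between these 2 genes is uncertain. In the list, 3 genes were lower at an unadjusted p below 0.05 without WT replicate 2, instead of 1, against 8.46% of all genes.

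**Figure D5:**
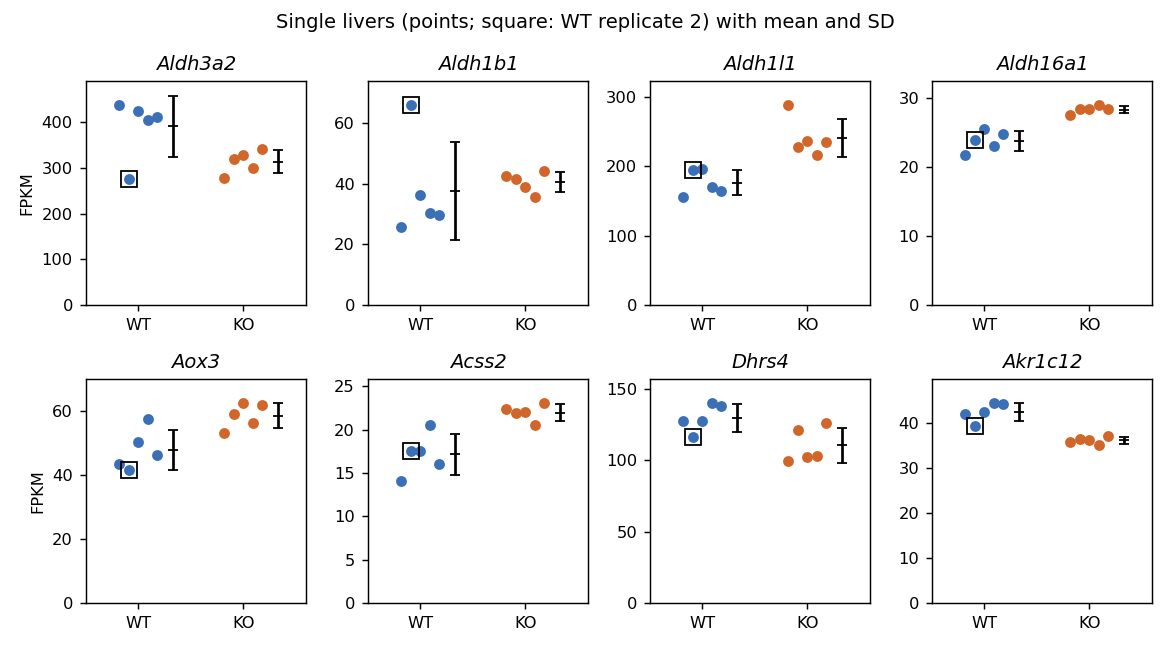
FPKM of 8 genes in single livers, from 0, with the mean and SD (n = 5) beside the points of each genotype and a square around WT replicate 2. For Aldh3a2, WT replicate 2 lies below the KO livers and the other WT livers above them, while for Aldh1l1, Aldh16a1 and Akr1c12 the groups do not overlap.

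Of 19 retinoid genes, 17 were tested and 1 was higher at an unadjusted p below 0.05, which was Rdh11, a retinal reductase (123% of WT, limma adjusted p 0.295). Rdh7, an abundant liver retinol dehydrogenase, was at 96.3% (log2 fold change -0.05, 0.805), and at -0.09 on that scale without WT replicate 2 (0.682). Rxra, Rbp4 and Lrat had log2 fold changes of 0.13, 0.12 and -0.18 (limma adjusted p 0.506, 0.521 and 0.512). Genes of periportal hepatocytes, which do most amino acid breakdown and urea synthesis, had 13 of 17 fold changes above 0, with a median of 0.31, and 7 of 17 higher at an unadjusted p below 0.05. Over all genes tested, 34.9% lay above 0 and 2.69% were higher at such a p. The 17 pericentral genes had a median of -0.01 and 5 such genes. No gene of either list passed the adjusted threshold. Without WT replicate 2, 9 periportal genes were higher at an unadjusted p below 0.05 and 1, Hal, passed the adjusted threshold. At such a p, 4 pericentral genes were higher and 3 lower. The shares over all genes were then 3.17% higher and 8.46% lower. Among the pericentral genes was Glul, glutamine synthetase, at 392.72, 243.89, 418.47, 437.93 and 405.55 FPKM in WT and at 422.45, 499.68, 499.92, 512.75 and 440.99 FPKM in KO (log2 fold change 0.35, limma adjusted p 0.347). WT replicate 2 was the lowest liver, and without it the log2 fold change of Glul was 0.20 (adjusted p 0.319). Slc1a2, Cyp27a1 and Cyp1a2, of lower p, had log2 fold changes of 0.29, 0.34 and 0.29 (limma adjusted p 0.195, 0.260 and 0.309). Without WT replicate 2 these were 0.22, 0.26 and 0.20 (0.210, 0.364 and 0.409). Every KO liver of Slc1a2 lay above every WT liver, as for 0.581% of all genes. Of the 17 pericentral fold changes, 9 lay below 0. Among the periportal genes were Sds, serine dehydratase (log2 fold change 0.71, limma adjusted p 0.140), and Cth, of cysteine synthesis (0.63, 0.143). Asl (0.56, 0.155) and Cps1 (0.49, 0.199) were the next by p in that list. Their part in the values of the dehydrogenases was not tested.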

How the data were processed

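Liver samples of female mice, 5 WT and 5 Etnppl KO, gave 1 poly(A) library each, per the labels' protocols. The authors deposited FPKM per gene, rounded to 2 decimals, for 47729 genes. The submitters' processing notes name STAR, RSEM, R 4.0.2, DESeq2, DESeq and the build mm10. Their roles, the annotation release and the strand setting are unknown here. Because FPKM are not counts, no count test was run. Depth was estimated from low values of transcripts of 350 to 1000 bases. For each library, depth and mean fragment length were searched together. The pair kept put the largest share of values within 0.1 fragment of a whole number. That share was 93.1% to 96.1%, and since the search maximised it, it is no check on the depth.

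Values were analysed as log2(FPKM + 0.5), which understates changes of low genes. The 12395 genes averaging 0.5 FPKM or more were fitted with limma 3.58.1 in R 4.3.3, with a trended and robust prior. Its p-values are two-sided and were adjusted by Benjamini-Hochberg over all genes tested, with a threshold of 0.05. Fold changes and intervals come from that fit, and percentages compare group means of FPKM. Correlations used 100000 permutations in SciPy 1.17.1. The fit was also run on simulated data with changes of known size. How often it recovers changes as small as those of the members is not given here. The named genes are Etnppl, the 10 members, up to 4 genes of lowest p that averaged 1 FPKM or more in each of 8 related lists, 8 fixed genes, and the 3 genes most like Aldh2 and Adh1. Adh6a, Adh7 and Hal were added after their values were seen. The members and lists were chosen with earlier results of these data known. Alternatives were other pseudocounts (0.1 and 1), filters, scalings, priors, array weights, a replicate block and leaving out each library. Coordinates are from GENCODE M21 (GRCm38) and promoters from RefSeq (GRCm38.p6), aligned with Biopython 1.88. Plots used matplotlib 3.10.9 in Python 3.11.15.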

Additional observations from a re-analysis of the deposited data

Results flagged for a closer look

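In 5 of the 94 groups screened (47 genes in each genotype), 1 liver lay far outside the other 4, by a gap of more than 0.71 of the group's range on the log2(FPKM + 0.5) scale. Chance alone gives such a gap in about 1 in 20 groups. On that scale all 5 were WT groups with WT replicate 2 as the lowest liver. Aldh2 was at 1077.53 FPKM there and between 1251.19 and 1310.83 FPKM in the other WT livers. Adh1 was at 641.45 FPKM against 1023.51 to 1043.44 FPKM, the widest gap of the 5, 0.96 of the log2 range. Aldh3a2 was at 274.83 FPKM against 405.51 to 437.37 FPKM. The pericentral genes Cyp2e1 and Glul were at 5870.73 FPKM against 7486.52 to 7868.81 FPKM and at 243.89 FPKM against 392.72 to 437.93 FPKM. These 5 genes were measured in the same library, so the gaps are not separate observations. On the FPKM scale itself, tried after the data were seen, the same 5 groups had such gaps and 3 more did. These were Aldh1b1 in WT, with WT replicate 2 the highest (65.87 FPKM, 0.732 of the range), Adh5 in KO, with KO replicate 5 the highest (183.18 FPKM, 0.717), and Aldh1l1 in KO, with KO replicate 1 the highest (287.74 FPKM, 0.715).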

How the results depend on the processing

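The count of all genes past the threshold, 8 with the settings of the report, was 5 with no filter, 5 without the trend and robust prior, 5 with the replicate number as a block, 18 with array weights and 30 at an adjusted p of 0.1. It lay between 4 and 18 with 1 library left out, with 18 without WT replicate 2. The count of members past the threshold was 0 to 1 with 1 library left out, and that of related genes 0 to 1. Each count of 1 came without WT replicate 2, from Aldh3a2 and from Hal. The other alternatives gave 0 members, and the members' median kept its sign in each. Aldh3a2 had an unadjusted p of 0.0635 under median-of-ratios scaling. No member had an unadjusted limma p below 0.05 without WT replicate 1, without WT replicate 3 or without KO replicate 1. The share of fold changes above 0 went from 34.9% to 49.8% under that scaling and 48.3% under quantile normalization, which called 645 genes higher and 679 lower at an unadjusted p below 0.05.

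Among the genes named, signs turned in the following log2 fold changes, all near 0. The Aldh1a1 log2 fold change turned to 0.0497 under median-of-ratios scaling, 0.0040 as TPM, 0.00836 under quantile normalization and 0.0102 rescaled without the top 50 genes. Under quantile normalization and array weights, the Adh1 log2 fold change turned to -0.0306 and -0.0815 and the Cat log2 fold change to -0.0499 and -0.0390. The Rdh7 log2 fold change turned to 0.0023 under median-of-ratios scaling. With 1 library left out, the values ran from -0.16 to 0.12 for Aldh1a1, -0.13 to 0.12 for Adh1, -0.20 to 0.0010 for Adh4, -0.0052 to 0.0536 for Aldh7a1, -0.0581 to 0.0487 for Cat and -0.0649 to 0.0930 for Aox1. The cause was not tested. The labels do not say that the replicate numbers pair the samples, so the main fit did not pair them. Between same-numbered livers of the genotypes, deviations had r of 0.12, -0.02, 0.07, 0.001 and 0.20 for replicates 1 to 5. Of the 10 libraries, 5 lay closest to their own number among the 5 libraries of the other genotype. Whether the numbers mark pairs or a shared batch was not tested. The block changed no call among the members.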
